A study of Rattus norvegicus with 4 samples.

Results

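The rat genes whose names consist of Zfp followed by a number, a naming series for zinc finger proteins, were compared between PDGF-BB-treated and vehicle-treated aortic smooth muscle cells. Members were all genes with a single annotated symbol of this form, except Zfp36, Zfp36l1 and Zfp36l2, which encode mRNA decay factors. The rule gave 172 genes of the 12922 genes measured, each represented by its brightest probe set over the 4 arrays. The cells were cultured rat aortic smooth muscle cells that had been starved of serum and insulin for 72 h, and this starvation applied to every group. One group was given PDGF-BB, the homodimer of the B chain of platelet-derived growth factor and a mitogen of these cells, at 30 ng/mL for 3 h (2 arrays). The other was given the vehicle, bovine serum albumin in dilute acetic acid, for the same 3 h (2 arrays). Each array gives Affymetrix probe set intensities on a linear scale, in arbitrary units. Whether replicate arrays stem from separate cultures is not stated, nor are strain, sex and age, so p-values measure only the spread between these arrays, which may be technical. The number of arrays limits the precision.

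All 8 smooth muscle markers examined were above an intensity of 80.3, the brightest of 27 Bacillus control probe sets, which served as a rough yardstick of background. Their summed intensity was 37723 and 36769 on the PDGF-BB arrays, against 38828 and 39365 on the vehicle arrays, a sum made up mostly of Acta2, Tagln and Cnn1, which were not called. Lmod1, Smtn and Myh11, genes of the contractile apparatus, fell by 1.70, 0.79 and 0.70 on the log2 scale by limma (adjusted p 0.00246, 0.00930 and 0.0256), and 0 of the 8 were called higher. Above that yardstick were 1 of 5 endothelial markers (Esam), 2 of 7 leukocyte markers (Cd74 and Lyz2), 2 of 5 fibroblast markers (Pdgfra and Lum) and 0 of 2 Schwann cell markers, and of these 19 markers of other cell types Esam was the one called, lower with PDGF-BB by 0.47 on the log2 scale. The part of these differences, and of other cells, in the results was not tested. In these bulk samples, fewer cells of a type and less RNA per cell cannot be told apart.

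Zinc finger proteins of the classical type fold short stretches of protein around a zinc ion held by cysteines and histidines, and rows of such fingers read DNA. Many of the genes named Zfp or, in human, ZNF also encode a KRAB domain, which recruits the corepressor TRIM28. TRIM28 in turn brings the histone methyltransferase SETDB1 and heterochromatin proteins of the HP1 family, a system known for silencing transposable elements and imprinted loci. The name is given for the presence of a zinc finger and not for a shared function, so the series also holds RNA-binding proteins, ubiquitin ligases and ribosome assembly factors. The zinc finger factors best studied in vascular smooth muscle, of the Klf and Egr families, carry other names and are not members.

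Of the 172 Zfp-named genes, 17 rose and 41 fell with PDGF-BB by limma (adjusted p below 0.05), and 114 did not pass. That was 9.88% higher and 23.8% lower, beside 12.4% higher and 15.3% lower among all genes, or 27.7% of all genes called in either direction. Changes were small for most members. Called fold changes of at least 2 on the log2(intensity + 16) scale were rises in 5 and falls in 10 of the 172 members. They were rises in 594 (4.60%) and falls in 488 (3.78%) of all 12922 genes. The median log2 fold change of the members was -0.15, and that of all genes was -0.03. Taken by sign alone, 57 members were higher and 115 lower with PDGF-BB. By the same count, 5945 of the 12922 genes measured were higher and 6946 lower. Both PDGF-BB arrays lay above both vehicle arrays in 38 members and below both in 87, while the groups overlapped in 47. The same separation was seen upward in 29.7% and downward in 37.8% of all genes.

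The members' probe sets were of low to intermediate brightness, with a median intensity of 230 against 296 over all genes, so genes of like intensity are the closer comparison. Intensities were divided into bins of 1 unit of log2(intensity + 16), and the share called among the other genes of each bin was weighted by the number of members in it. On that basis 12.7% of genes of like intensity were higher and 20.5% lower, beside 9.88% and 23.8% of the members. The share called in either direction was 33.7% for the members and 33.1% for genes of like intensity. In all 13 alternative analyses the share of members called higher was below that of genes of like intensity. The share called lower was above it in the other 9 but below it in the 4 fits that left out 1 array, with 1.74% against 3.57% and 1.16% against 3.96% without vehicle replicate 1 and 2, and 17.4% against 17.8% and 7.56% against 9.61% without PDGF-BB replicate 1 and 2. Subtracting the median of the same bin from each member left a median log2 fold change of -0.04. The 13 alternatives refit the same 4 arrays, so their agreement adds no independent evidence. The differences between members and genes of like intensity were not tested.

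Shares varied from bin to bin. Between intensities of 48 and 112, 8 of 21 members fell (38.1%), against 15.2% of the other genes there, and 0 rose, against 10.0%. This bin spans the background yardstick of 80.3. Of the 8 that fell, Zfp518a alone had a PDGF-BB mean above it, at 84.1, so these falls rest on values near background. In the next bin, from 112 to 240, 15 of 49 fell (30.6%) against 26.0%, and 3 rose (6.12%) against 11.2%. From 240 to 496 the order turned, with 8 of 38 members lower (21.1%) against 28.0% of other genes. Between 496 and 1008, 6 of 29 fell (20.7%) against 21.6%, and 7 rose (24.1%) against 18.9%. Differences between these shares were not tested.

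**Figure D1:**
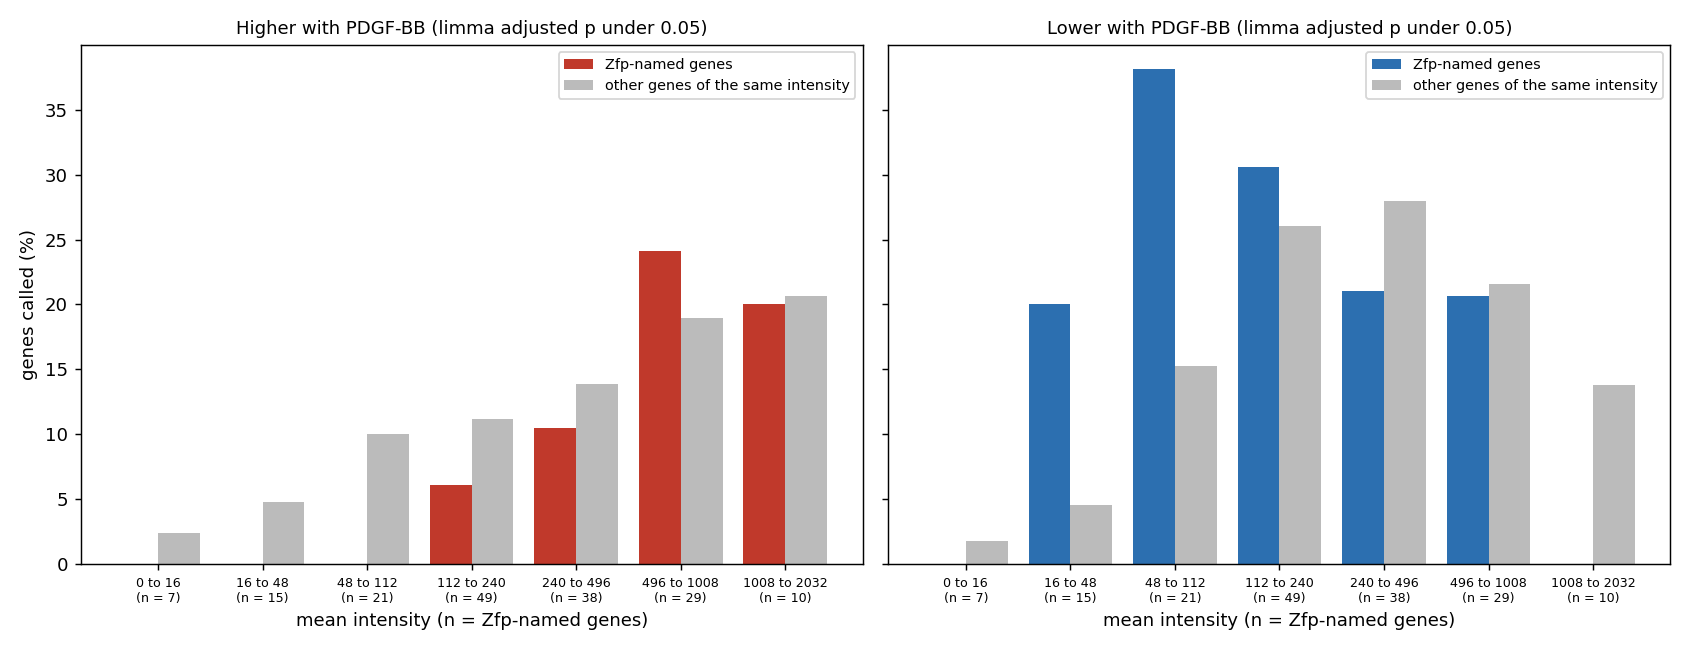
Percent of genes called higher (left panel) or lower (right panel) with PDGF-BB by limma, for Zfp-named genes (coloured bars) and the other genes of the same mean intensity (grey bars), with the number of Zfp-named genes under each bin; the 3 members above 2032 are not drawn. The coloured bar stands above the grey one for falls between 16 and 240 and below it from 240 upward, and for rises it stands above in the bin from 496 to 1008.

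The second PDGF-BB array was dimmer than the first over this range of intensities. The members' median log2(intensity + 16) was 7.98 and 7.82 on the PDGF-BB arrays, against 7.98 and 7.97 on the vehicle arrays. The median difference of the second from the first PDGF-BB array was -0.16 for the members and -0.09 for all genes. The part of this offset in the members' median was not tested by itself. Cyclic loess, which removes offsets that vary with intensity, moved the members' median log2 fold change to -0.07, with 26 members higher and 43 lower. Without PDGF-BB replicate 2 the median was -0.10, with 10 members higher and 13 lower.

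**Figure D2:**
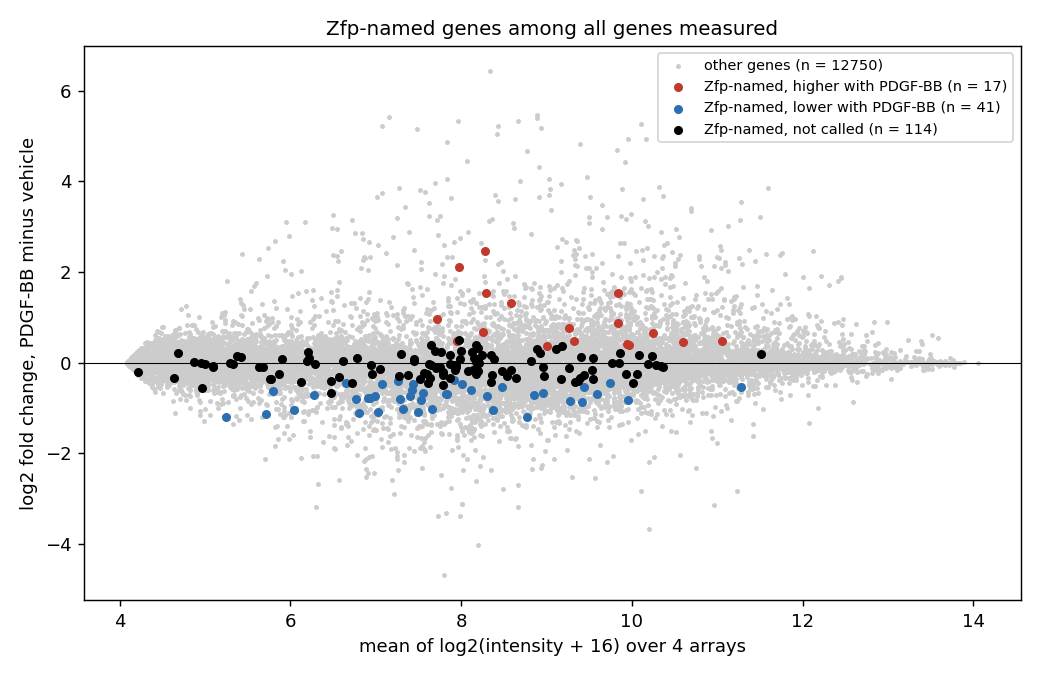
Log2 fold change of PDGF-BB minus vehicle against the mean of log2(intensity + 16) over 4 arrays, with 1 point per gene; coloured points are the 17 Zfp-named genes that rose and the 41 that fell, black points the 114 that did not pass, and grey points the other 12750 genes. Members spread from -1.19 to 2.47, inside the range of -4.68 to 6.43 of all genes.

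The 5 members that rose at least 2-fold stood apart from the rest. Zfp697, an RNA-binding zinc finger protein linked to muscle regeneration in mouse, was at 764 and 668 on the PDGF-BB arrays, against 106 and 127 on the vehicle arrays. Its log2 fold change of 2.47 (SE 0.13, adjusted p 0.00149 by limma) was the largest of the members. Zfp469, whose human counterpart is mutated in brittle cornea syndrome, a disorder of connective tissue, was at 560.45 and 461 with PDGF-BB, against 113 and 97.7 with vehicle. It rose by 2.11 (SE 0.14, adjusted p 0.00246 by limma). For both genes every PDGF-BB array was more than 3 times as bright as either vehicle array.

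Zfp217, the rat counterpart of a human transcriptional corepressor gene amplified in breast cancer, was at 578 and 463 with PDGF-BB, against 170.04 and 166 with vehicle, a log2 fold change of 1.54 (SE 0.13, adjusted p 0.00444 by limma). Zfp347 was at 1579.9 and 1489 with PDGF-BB, against 526 and 517 with vehicle, a log2 fold change of 1.53 (SE 0.09). For Zfp511 the PDGF-BB arrays read 575 and 605 and the vehicle arrays 219 and 239, a log2 fold change of 1.31 (SE 0.10). The groups did not overlap in any of the 5 genes. These 5 calls also held in each of the 13 alternative analyses, the 4 that left out 1 array included.

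The next rises were smaller. Zfp598, a ubiquitin ligase that marks collided ribosomes, was at 1255 and 1204 with PDGF-BB, against 690.15 and 626 with vehicle, and rose by 0.89 (SE 0.10, adjusted p 0.00727 by limma). Zfp622, the counterpart of a yeast factor for late assembly of the large ribosomal subunit, was at 1646 and 1394 against 947 and 957, and rose by 0.66 (SE 0.12, adjusted p 0.0221 by limma). Members with related roles did not pass. Zfp593, a nucleolar protein whose yeast counterpart also serves the large subunit, was at 317 and 253 with PDGF-BB, against 198 and 191 with vehicle. Its groups did not overlap, but its log2 fold change of 0.51 (SE 0.14) missed the threshold (adjusted p 0.0621 by limma). Zfp330, a nucleolar protein, was at 3059 and 3134 with PDGF-BB, against 2665 and 2788 with vehicle, a log2 fold change of 0.18 (SE 0.09, adjusted p 0.215 by limma). The calls of Zfp598 and Zfp622 ended without vehicle replicate 1 or 2, when 1 vehicle array remained.

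Other transcriptional regulators completed the 12 largest rises. Zfp703, a corepressor of the NET family and a breast cancer oncogene in human, was at 827 and 749 with PDGF-BB, against 501 and 410.1 with vehicle, and rose by 0.77 (SE 0.13, adjusted p 0.0215 by limma). Its family partner Zfp503 was near background, at 91.0 and 104 against 86.8 and 93.3, a log2 fold change of 0.10 (SE 0.11, adjusted p 0.572 by limma) with overlapping groups. Zfp281, a factor that binds GC-rich promoters and is known in pluripotent cells and in epithelial-mesenchymal transition, was at 2594 and 2401 with PDGF-BB, against 1739 and 1845 with vehicle, and rose by 0.47 (SE 0.10, adjusted p 0.0319 by limma). Zfp617, Zfp280c and Zfp455 rose by 0.96 (SE 0.15), 0.69 (SE 0.10) and 0.49 (SE 0.11). Beyond these 12, Zfp655 (0.46), a cell cycle-linked protein that binds the Vav exchange factor, and the other 4 members called higher rose by 0.36 to 0.47. Of the 12 largest rises, Zfp617 and Zfp280c lost their call without vehicle replicate 1 or 2, and Zfp703, Zfp281 and Zfp455 lost it whichever of the 4 arrays was left out.

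**Figure D3:**
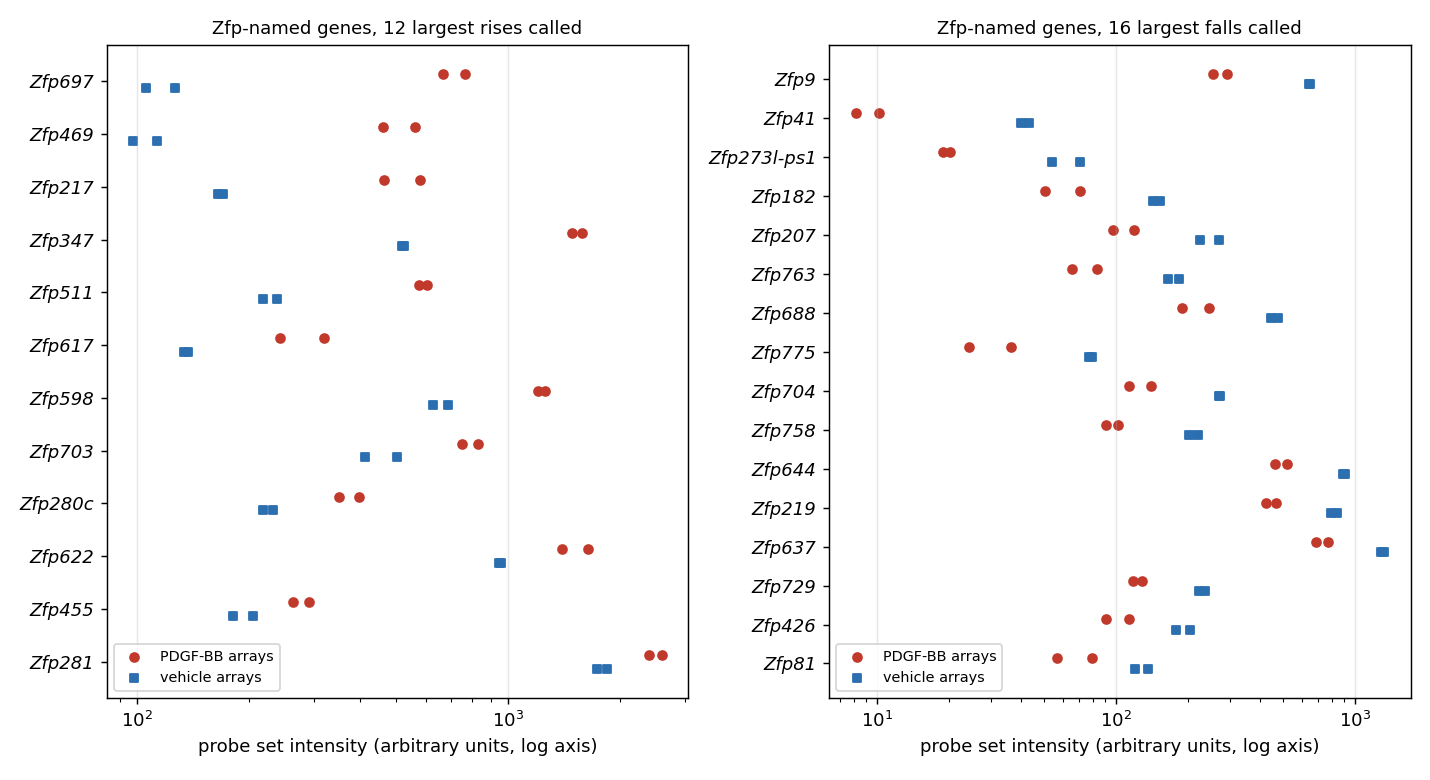
Probe set intensity on a log axis for the 12 Zfp-named genes with the largest called rises (left panel) and the 16 with the largest called falls (right panel), with 1 point per array: 2 PDGF-BB arrays (red circles, upper of each pair of rows) and 2 vehicle arrays (blue squares). The groups do not overlap in any of the 28 genes, and Zfp697 shows the widest gap among the rises.

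The order of the falls depended on the offset added before taking logarithms, since several members were dim. With the offset of 16, Zfp9 and Zfp41 had the same log2 fold change to 2 decimals. With an offset of 1, Zfp41 (-2.07), Zfp273l-ps1 (-1.61), Zfp775 (-1.36) and Zfp182 (-1.29) fell further than Zfp9 (-1.24), and with an offset of 64 Zfp41 fell by 0.53, Zfp273l-ps1 by 0.59 and Zfp775 by 0.60. Zfp9 was at 292 and 254 on the PDGF-BB arrays, against 639 and 647 on the vehicle arrays, both above the background yardstick, a log2 fold change of -1.19 (SE 0.11, adjusted p 0.00454 by limma), and this call held in each of the 13 alternatives. Zfp41 fell by the same 1.19 (SE 0.10, adjusted p 0.00383 by limma), but at 10.2 and 8.12 with PDGF-BB, against 39.9 and 43.0 with vehicle, it was below the background yardstick in both groups. Zfp273l-ps1, which the reference annotation lists as a transcribed pseudogene, was likewise below it, at 18.9 and 20.2 against 54.0 and 70.5 (log2 fold change -1.13, SE 0.13). In all, 28 members had both group means at or below the yardstick, 4 of them called lower. Of the 41 members that fell, 11 averaged no more than the yardstick on the PDGF-BB arrays, so the sizes of their falls depend on values near background.

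Zfp207, a microtubule-binding protein that loads the checkpoint protein Bub3 onto the spindle, was at 119 and 97.0 with PDGF-BB, against 269.8 and 225 with vehicle. It fell by 1.09 (SE 0.15, adjusted p 0.0115 by limma). Zfp182, Zfp763, Zfp688, Zfp775, Zfp704 and Zfp758 fell by 1.02 to 1.11 on the log2(intensity + 16) scale, each with separate groups. The sizes are uncertain for Zfp775, whose means of 30.4 with PDGF-BB and 78.3 with vehicle were both below the yardstick, and for Zfp182 and Zfp763, whose PDGF-BB means of 60.4 and 74.4 were below it. Zfp688 was at 245 and 189.6 with PDGF-BB, against 446 and 478 with vehicle. Zfp704, related to the Gli-similar factors, was at 140.3 and 113 with PDGF-BB, against 269.6 and 273 with vehicle, and its second probe set, at a mean of 30.0 and so near background, was not called.

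Brighter members also fell. Zfp644, a subunit of complexes of the histone methyltransferases Ehmt1 and Ehmt2, was at 519 and 463 with PDGF-BB, against 913 and 891 with vehicle, a log2 fold change of -0.86 (SE 0.10, adjusted p 0.00825 by limma), and its second probe set was called lower as well (-0.52). Zfp219, a partner of Sox9 in cartilage, was at 466 and 424 with PDGF-BB, against 841 and 790.15 with vehicle, and fell by 0.85 (SE 0.10, adjusted p 0.00826 by limma). Zfp637 was at 769 and 687 with PDGF-BB, against 1324 and 1290.4 with vehicle (-0.83, SE 0.10). In these 3 genes the arrays of a group lay far closer to each other than the groups did. The dimmer Zfp729, Zfp426 and Zfp81 fell by 0.82 (SE 0.10), 0.81 (SE 0.14) and 0.79 (SE 0.16), which completed the 16 largest falls. The PDGF-BB mean of Zfp81, at 67.8, was below the yardstick, so the size of its fall is uncertain. The other 25 members called lower fell by 0.39 to 0.78.

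Some of these 25 have known roles. Zfp260, an effector of adrenergic signalling in rat heart muscle cells, was at 2101 and 2008 with PDGF-BB, against 2971 and 2958 with vehicle. It fell by 0.53 (SE 0.09, adjusted p 0.0190 by limma), and both of its probe sets were called. Zfp580 was at 368 and 326 with PDGF-BB, against 592 and 565 with vehicle, a log2 fold change of -0.71 (SE 0.10, adjusted p 0.0138 by limma). Zfp462, a chromatin regulator that binds the heterochromatin protein HP1, was at 136 and 132 against 211 and 232, and fell by 0.66 (SE 0.10, adjusted p 0.0139 by limma). When 1 vehicle array was left out, far fewer genes were called, lower and higher alike, among the members and among all genes. The members' median log2 fold change was then -0.17 without vehicle replicate 1 and -0.15 without vehicle replicate 2, against -0.15 with all 4 arrays. Without vehicle replicate 1 or 2, with a single vehicle array left, 3 and 2 of the 41 were still called lower, and Zfp9 and Zfp41 were the members called lower in all 4 fits that left out 1 array, while Zfp462 was called in 0 of these fits by limma.

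Among the 28 measured members of known role that had been listed by name, 6 rose, 4 fell and 18 did not pass, with a median log2 fold change of 0.12. That was 21.4% higher and 14.3% lower, beside 12.4% and 15.3% of all genes. These members were brighter, with a median intensity of 670 against 296 over all genes. Among the other genes between intensities of 496 and 1008, 18.9% were higher and 21.6% lower. The list was chosen with earlier results of these data known, and the difference was not tested. The 18 that did not pass ranged from -0.44 to 0.51. Zfp57, a KRAB protein that keeps imprints methylated, was at 926 and 816 with PDGF-BB, against 1111 and 1273 with vehicle, a log2 fold change of -0.44 (SE 0.12, adjusted p 0.0663 by limma) with separate groups. Zfp106, an RNA-binding protein needed by motor neurons in mouse, had a log2 fold change of -0.27 (SE 0.10, adjusted p 0.137 by limma). Zfp110, which binds the p75 neurotrophin receptor, had one of -0.36 (SE 0.12, adjusted p 0.112 by limma). Zfp91, a ubiquitin ligase in NF-kappaB signalling, was represented by 8 probe sets, of which 0 were called by limma, and its brightest had a log2 fold change of -0.24 (SE 0.12, adjusted p 0.214 by limma).

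Further promoter and chromatin factors did not pass on their brightest probe set. Zfp148, which binds GC-rich promoters, was at 1197 and 1074 with PDGF-BB, against 1133 and 1197 with vehicle, with overlapping groups and a log2 fold change of -0.038 (SE 0.10, adjusted p 0.832 by limma) that turned to 0.039 with array medians subtracted. Zfp143, a factor of promoters and chromatin loops, had a log2 fold change of 0.13 (SE 0.10, adjusted p 0.402 by limma) on its brightest probe set, while a dimmer one was called higher by 0.66 (limma adjusted p 0.0186). Zfp384, a nuclear matrix factor studied at collagen promoters in rat bone cells, had 0.17 (SE 0.11), Zfp335, a neural chromatin regulator, 0.23 (SE 0.10), and Zfp746, a substrate of parkin, 0.23 (SE 0.12), none of which passed. Zfp354a, the rat kidney factor Kid-1, was at 357 and 305 with PDGF-BB, against 273 and 314 with vehicle, a log2 fold change of 0.16 (SE 0.13, adjusted p 0.432 by limma). Zfp638, a nuclear RNA- and DNA-binding protein, had a log2 fold change of -0.0090 (SE 0.10, adjusted p 0.966 by limma), which turned to 0.068 with array medians subtracted and 0.027 after cyclic loess, and Zfp423, a preadipocyte factor, was near background at 53.9 and 69.5 with PDGF-BB, against 55.0 and 57.1 with vehicle.

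Several probe sets were available for 43 members. Among the 10 of these whose brightest probe set was called, all probe sets were called alike in 5 (Zfp260, Zfp267, Zfp496, Zfp644 and Zfp655), and some but not all in the other 5 (Zfp24, Zfp180, Zfp213, Zfp704 and Zfp758). No member had calls in opposite directions. In 6 members another probe set was called while the brightest was not (Zfp143, Zfp212, Zfp292, Zfp532, Zfp821 and Zfp972), and in 27 members 0 probe sets were called. Of the members, 3 rested on probe sets of the s or x type, which can match transcripts of more than 1 gene. Whether members with like symbols, such as Zfp729 and Zfp729b or Zfp764 and Zfp764l1, share signal was not tested.

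Zinc finger genes lie in groups along the chromosomes, since many arose by local duplication. In the GRCr8 annotation, 45 of the 168 members placed on a chromosome lay on chromosome 1. There were 5 runs of at least 4 members with no more than 5 other protein-coding genes between neighbours, 4 of them on chromosome 1 and 1 on chromosome 4, holding 26 members in all. Of these 26, 1 rose and 8 fell, beside 9.88% higher and 23.8% lower among all members and 12.4% and 15.3% among all genes. In 4 of the 5 runs fold changes of both signs occurred. In the run of Zfp455l1, Zfp972, Zfp729b and Zfp729 all 4 log2 fold changes were negative (-0.82 to -0.28), 2 of them called. The run from Zfp180 to Zfp94 held a rise of 0.40 at one end and a fall of 0.44 at the other. On chromosome 4, Zfp956 (-0.70) and Zfp775 (-1.04) fell, while the other 5 members of the run had log2 fold changes between -0.36 and 0.23 and did not pass.

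**Figure D4:**
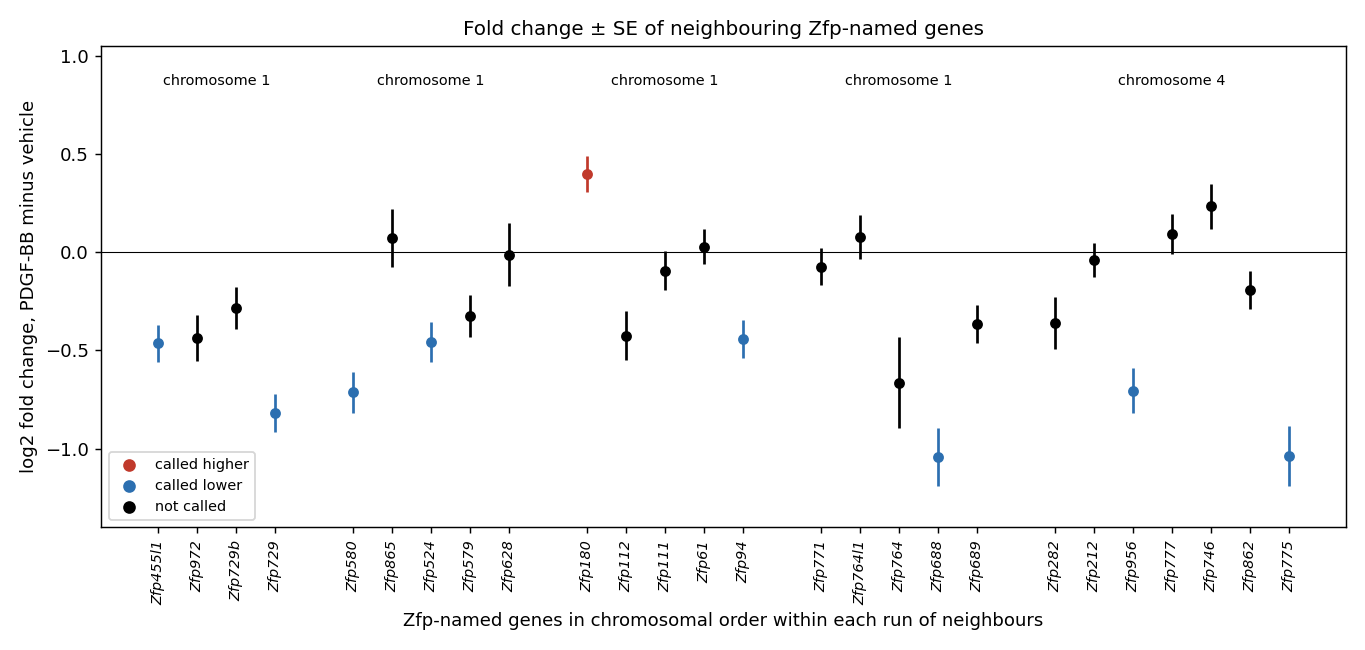
Log2 fold change of PDGF-BB minus vehicle with its SE (bars) for the 26 Zfp-named genes in 5 runs of neighbours, in chromosomal order within each run and with no distances drawn; red marks the gene called higher, blue the 8 called lower and black those not called. Called genes stand beside uncalled ones in each run.

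Promoters of the members were described by base composition and motifs, without a test. RefSeq promoters of the GRCr8 build were available for 139 members, and the 250 bases upstream of the annotated start were examined. Their median GC content was 56.0% with a median of 12 CpG dinucleotides, against 59.2% and 15 for 10655 genes on the array. The median was 60.6% in the 12 members that rose (quartiles 51.8% and 67.3%), 52.8% in the 33 that fell (45.2% and 56.4%) and 57.2% in the 94 not called, so the ranges overlapped. No entry was available for Zfp469, which rose more than Zfp217, or for Zfp9, Zfp41 and Zfp273l-ps1, which fell more than Zfp182. Among members with an entry, the 3 largest rises and the 3 deepest falls (with the offset of 16) are printed as standing farthest apart. Sequences run in the direction of the gene, with capitals for the motif matches described after them.
Zfp697, GRCr8 chr2:188659044-188659293, plus strand: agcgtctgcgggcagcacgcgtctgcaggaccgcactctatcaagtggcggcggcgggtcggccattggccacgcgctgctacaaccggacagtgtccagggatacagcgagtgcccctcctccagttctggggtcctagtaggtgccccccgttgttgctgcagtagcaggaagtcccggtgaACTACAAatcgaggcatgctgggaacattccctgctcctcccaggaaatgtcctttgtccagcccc
Zfp217, GRCr8 chr3:179321694-179321943, minus strand: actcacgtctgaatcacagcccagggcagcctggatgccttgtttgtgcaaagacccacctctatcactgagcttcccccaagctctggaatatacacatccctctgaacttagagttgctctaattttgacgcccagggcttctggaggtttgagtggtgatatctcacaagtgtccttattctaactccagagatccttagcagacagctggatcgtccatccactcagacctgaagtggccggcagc
Zfp347, GRCr8 chr7:8117749-8117998, plus strand: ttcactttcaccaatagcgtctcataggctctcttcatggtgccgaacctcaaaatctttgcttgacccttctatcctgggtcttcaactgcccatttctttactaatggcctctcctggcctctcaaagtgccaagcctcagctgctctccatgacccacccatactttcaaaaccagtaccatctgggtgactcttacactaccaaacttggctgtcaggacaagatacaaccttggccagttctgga
Zfp182, GRCr8 chrX:3480741-3480990, plus strand: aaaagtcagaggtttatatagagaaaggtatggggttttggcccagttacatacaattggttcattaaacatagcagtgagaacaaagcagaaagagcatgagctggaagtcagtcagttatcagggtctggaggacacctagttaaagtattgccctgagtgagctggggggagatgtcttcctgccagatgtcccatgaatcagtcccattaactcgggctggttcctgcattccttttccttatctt
Zfp207, GRCr8 chr10:65883380-65883629, plus strand: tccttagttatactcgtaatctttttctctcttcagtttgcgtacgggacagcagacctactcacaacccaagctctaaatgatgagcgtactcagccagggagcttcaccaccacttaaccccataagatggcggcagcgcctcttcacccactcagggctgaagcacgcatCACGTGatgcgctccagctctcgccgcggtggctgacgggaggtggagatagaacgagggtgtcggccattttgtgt
Zfp763, GRCr8 chr7:12798222-12798471, minus strand: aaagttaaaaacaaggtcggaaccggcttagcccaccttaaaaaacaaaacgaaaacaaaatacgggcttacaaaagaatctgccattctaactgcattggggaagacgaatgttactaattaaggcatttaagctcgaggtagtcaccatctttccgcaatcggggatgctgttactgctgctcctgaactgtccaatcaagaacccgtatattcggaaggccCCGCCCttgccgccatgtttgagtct

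The GC content of these promoters overlapped between members that rose and members that fell. It was 62.4%, 51.2% and 48.4% for Zfp697, Zfp217 and Zfp347, which rose. For Zfp182, Zfp207 and Zfp763, which fell, it was 44.8%, 54.4% and 45.2%. Within these windows 7 motifs were searched on both strands: TGACTCA (AP-1), TGACGTCA (the cyclic AMP response element), CACGTG (E-box), GCGGGGGCG (EGR factors), CCGGAAG (ETS factors), GGGCGG (GC box, which can overlap the EGR motif) and ACTACAA (part of the ZNF143 motif). The promoter of Zfp697 held ACTACAA, that of Zfp207 CACGTG and that of Zfp763 GGGCGG on the other strand, while those of Zfp217, Zfp347 and Zfp182 held none of the 7. The GC box was found in 44.6% of member promoters, against 55.0% of promoters of genes on the array and 32.4% of all 27457 promoters. ACTACAA was found in 10 of 139 members (7.19%), against 3.59% on the array and 2.97% of all promoters. TGACTCA was present in 6 members (4.32%), beside 3.57% and 3.98%. It was found in 2 of the 12 members that rose, Zfp511 included, and in 0 of the 33 that fell. CCGGAAG was found in 3 of the 12 and 1 of the 33, ACTACAA in 2 and 2, and GGGCGG in 4 and 14. CACGTG, GCGGGGGCG and TGACGTCA were found in 0 of the 12, and in 2, 3 and 1 of the 33. These counts are small, and differences between them were not tested. A match is a run of letters and not a shown binding site.

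The partners of KRAB zinc finger proteins were examined as a list of 37 symbols of the TRIM28 pathway, of which 29 were measured. By limma 2 rose, 5 fell and 22 did not pass, 6.90% higher and 17.2% lower, beside the 12.4% and 15.3% of all genes. The median log2 fold change was -0.15, and -0.09 after subtraction of the median of genes in the same intensity bin. These genes were brighter than most, with a median intensity of 711 against 296 over all genes. Among the other genes between intensities of 496 and 1008, 18.9% were higher and 21.6% lower. The differences between these shares were not tested. Trim28 itself was at 2736 and 2676 with PDGF-BB, against 3336 and 3096 with vehicle, a log2 fold change of -0.25 (SE 0.09, adjusted p 0.132 by limma) with separate groups. Setdb1, its methyltransferase partner, had a log2 fold change of 0.09 (SE 0.10, adjusted p 0.591 by limma). Cbx5, which encodes HP1-alpha, was at 165 and 145 with PDGF-BB, against 312 and 351 with vehicle, and fell by 1.02 (SE 0.12, adjusted p 0.00762 by limma).

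Atf7ip, which stabilises SETDB1, fell by 0.91 (SE 0.12), Mphosph8, a subunit of the HUSH silencing complex, by 0.61 (SE 0.11), Ehmt2 by 0.46 (SE 0.10) and Cbx1, which encodes HP1-beta, by 0.44 (SE 0.10). The members of the list that rose were Trim24, a relative of Trim28, by 0.85 (SE 0.13) and the histone methyltransferase gene Suv39h2 by 0.52 (SE 0.11). Suv39h2 was near background, at 89.9 and 88.6 with PDGF-BB, against 51.9 and 63.5 with vehicle. Without vehicle replicate 1 or 2, with 1 vehicle array left, limma called 0 genes of this list, with 5 and 7 at an unadjusted p under 0.05.

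Zinc finger genes under the names Znf, Zscan, Zkscan and Zbtb followed by a number served as a second comparison. Of 44 such symbols, 2 of which (Zbtb8os and Zbtb11os1) name genes on the opposite strand of a Zbtb gene, 4 rose, 8 fell and 32 did not pass, which was 9.09% higher and 18.2% lower, beside 12.4% and 15.3% of all genes. Their median log2 fold change was -0.17, and -0.05 after subtraction of the median of genes in the same intensity bin, beside -0.15 and -0.04 for the Zfp-named genes. Fold changes ran from -1.35 to 0.73 on the log2 scale. At least 2-fold changes called by limma were rises in 0 and falls in 4 of the 44, beside 4.60% and 3.78% of all genes. Among these 4 was Zbtb11os1 (-1.17). The difference between these genes and the Zfp-named genes was not tested.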

How the data were processed

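Total RNA of rat aortic smooth muscle cells was hybridised as biotin-labelled cRNA to 4 arrays, per the labels' protocols. The authors deposited 1 linear intensity per probe set and array, by software and scaling not given in the sources used here. After removal of 57 control probe sets, log2(intensity + 16) of 23707 probe sets was tested with limma 3.58.1 in R 4.3.3 (lmFit, eBayes, two-sided, Benjamini-Hochberg over all probe sets, threshold 0.05), without further scaling. The offset of 16 understates changes of dim genes. Fold changes are PDGF-BB minus vehicle. There were 2 residual degrees of freedom. Genes came from a platform annotation dated 2016, in which 17279 probe sets carried 1 symbol, 373 carried several and 6055 carried none. Members and lists were chosen with earlier results of these data known. Genes were named by rule: the 12 largest rises and 16 largest falls called with separate groups, the 3 brightest members, up to 8 called genes of the TRIM28 pathway and 28 members of known role. Others, such as Zfp24, Zfp180, Zfp267, Zfp496, Zfp956 and the uncalled Trim28 and Setdb1, were named after their values were seen. A planned division of members by protein domains was not run, as no protein sequences were used here. The alternatives were 13 settings.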

Additional observations from a re-analysis of the deposited data

How the results depend on the processing

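The members' median log2 fold change stayed negative under all 13 alternatives and the bin correction, between -0.23 and -0.04. Over all genes the median was negative too, except with array medians subtracted, and lay between -0.06 and 0.05 under the 13 alternatives. Counts of calls moved more, among all genes as well as in these sets. Of all genes, 16.4% were higher after cyclic loess, 9.72% with an offset of 1 and 10.6% with the replicate block, against 12.4% as reported. The shares lower were 17.4%, 10.3% and 12.6%, against 15.3%. Leaving out 1 array lowered both shares of all genes in each case. The 17 members called higher became 26 after cyclic loess, 9 with an offset of 1, 10 with the replicate block, and 5 to 10 without 1 array. The 41 called lower became 26 with an offset of 1 and 2 to 30 without 1 array, the lowest without a vehicle array. The 7 genes called in the TRIM28 pathway became 4 with an offset of 1, 4 with the replicate block, 12 with a trended robust variance prior and 0 to 5 without 1 array. The 12 called among Znf, Zscan, Zkscan and Zbtb genes became 7 with an offset of 1, 19 of those above the brightest Bacillus control, and 2 to 6 without 1 array. Fits without 1 array have a single array in 1 group, which is assumed to vary like the rest. Otherwise the cause was not tested. Of the 57 named genes, 3 uncalled ones changed sign. Zfp148 was at 0.039 with array medians subtracted and between -0.11 and 0.040 when 1 array was left out, with 0.0014 when that was vehicle replicate 2. Zfp423 was between -0.044 and 0.25 when 1 array was left out. Zfp638 was at 0.068 with array medians subtracted, 0.027 after cyclic loess, 0.053 with the mean of all probe sets and between -0.080 and 0.062 when 1 array was left out, with 0.038 when that was vehicle replicate 2. Same-numbered arrays share only a number: their deviations had a correlation of -0.098 over probe sets, and the replicate block lowered the members called lower to 34.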
